A study of Homo sapiens with 4 samples.

Results

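The mRNAs of 10 immediate early and other short-lived genes were followed from total cell RNA into RNA recovered with the Flag-tagged protein SIRT7. The genes were JUN, JUNB, JUND, FOS, EGR1, IER2, IER5, ATF3, MYC and ZFP36, found by an exact match of the gene name in the deposited table. All 10 were among its 23615 genes, and all 10 were among the 14555 that passed the filter on low counts. Each had more than 20 fragments in each of the 4 libraries.

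Both groups came from one human embryonic kidney line, HEK293T, that stably carries a Flag-SIRT7 construct and was grown in serum-containing medium for 10 to 15 passages. The input group (2 libraries) is total RNA of these cells, extracted directly with TRI reagent. The RIP group (2 libraries) is RNA released by proteinase K from an anti-Flag gel after the lysate had been incubated with it (RNA immunoprecipitation, RIP). Ribosomal RNA was removed from both, and no stimulation of the cells is given in the labels. The question of the comparison is which RNAs are recovered with SIRT7, a nucleolar and nuclear lysine deacylase. The controls carry the construct too, and no pull-down from cells without it was analysed here, so the RIP values also hold any RNA bound by the gel. Lysis and extraction also differed between the groups, and their part cannot be told apart from recovery with SIRT7. Neither separate cultures for the 2 libraries nor the number of clones in the line is stated. The p-values below thus rest on library-to-library spread alone, which may be technical.

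Immediate early genes are switched on within minutes by growth factors and stress, without new protein synthesis. Their mRNAs decay fast, in many cases through AU-rich elements in the 3′ untranslated region that recruit deadenylases. JUN and FOS family proteins pair through leucine zippers into the transcription factor AP-1, EGR1 is a zinc finger factor, and MYC pairs with MAX to drive growth genes. ZFP36 (tristetraprolin) binds AU-rich elements and speeds the decay of such mRNAs, and so acts on this class of transcripts itself.

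Libraries held 18131602 and 17310753 fragments on genes in input and 25655455 and 25998032 in RIP. The SIRT7 transcript itself was at 1148 and 1181 CPM (fragment counts scaled to a common library size with TMM factors) in input and at 43955 and 43199 CPM in RIP, which fits the labels of the groups but cannot separate the construct from the endogenous gene. All 7 genes typical of this line had fragments in every library, from 8 for PAX2 to 15693 for VIM, with LIN28B at 3158 and 2977 fragments in input and 932 and 1072 in RIP. Summed fragments of 10 markers of blood, liver, connective tissue, muscle, glia and endothelium lay between 264 and 301 in input and between 326 and 343 in RIP. These sums are not scaled to the library sizes above, which were larger in RIP. In the test described next, 3 of the 7 line genes were higher in RIP and 2 lower, and 2 of 5 tested markers of other cells were higher. Among all tested genes 38.0% were higher and 39.7% lower. CD3E and HBB were at 0 throughout, whereas COL1A1 had 164 and 144 fragments in input and 173 and 155 in RIP. COL3A1, GFAP and MYOD1 also had fragments in every library. The part of such other cells in the results was not tested.

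In the RIP libraries 5 of the 10 mRNAs were higher than in input, 2 were lower and 3 passed neither side (edgeR quasi-likelihood test, Benjamini-Hochberg adjusted p under 0.05 over all tested genes). JUND and JUNB were raised 3.28-fold and 2.73-fold, IER2 and IER5 1.73-fold and 1.55-fold, and JUN 1.26-fold. EGR1 fell by 0.82 and MYC fell by 0.37 on the log2 scale. Of all 14555 tested genes, 38.0% were called higher and 39.7% lower (77.7% in all), so calls in both directions were the rule in this comparison. The median log2 fold change of the 10 genes was 0.35, against -0.03 for all tested genes.

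Directions depend on the scale on which libraries are set against each other. The changes above are on the TMM scale, a trimmed mean that centres most genes near 0. With library totals alone the median of all tested genes moved to -0.76, 17.0% of them were called higher and 65.5% lower (82.6% in all), and of the 10 genes 2 were higher (JUND and JUNB) and 4 lower (JUN, EGR1, ATF3 and MYC). A change of scale moves all genes by nearly the same amount. Changes relative to the median of all genes were therefore bound to be nearly the same on both scales. Examples are 1.74 for JUND, 0.37 for JUN and -0.34 for MYC. Ratios between genes within a library are free of this choice, though not of the length trend described next, and are given beside the fold changes.

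**Figure D1:**
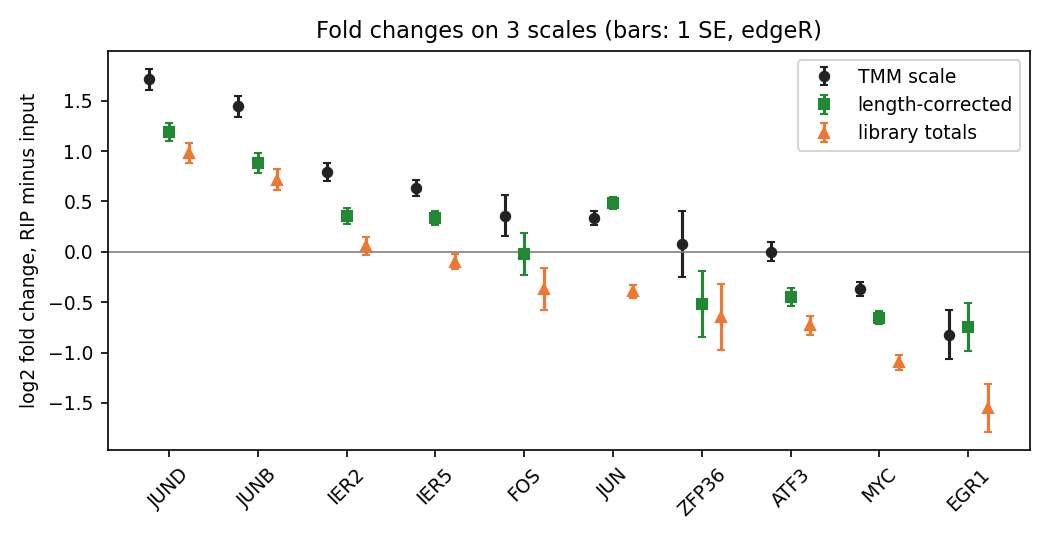
Log2 fold change of each gene, RIP minus input, on the TMM scale (circles), after length correction (squares) and with library totals (triangles), with bars of 1 standard error from edgeR over 2 libraries per group. JUND and JUNB lie above 0 and MYC and EGR1 below 0 on all 3 scales, while JUN is at 0.34, 0.49 and -0.39.

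Transcript length runs through the whole comparison. Longer transcripts had lower fold changes over all 14555 tested genes, with a Spearman rho of -0.60 (across genes, which share libraries and are not independent). The 10 genes had effective lengths between 0.578 (ZFP36) and 1.16 (JUN) times that of the median tested gene, with JUNB at 0.602, JUND at 0.622, IER2 at 0.687, IER5 at 0.797 and EGR1 at 1.09. Among the 10 genes the rho with length was -0.47. When the length trend of each library was taken out with offsets, 5 genes were again higher and 3 lower, where 34.4% of all tested genes were higher and 35.9% lower (70.3% in all). The median of the 10 genes was then 0.16.

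**Figure D2:**
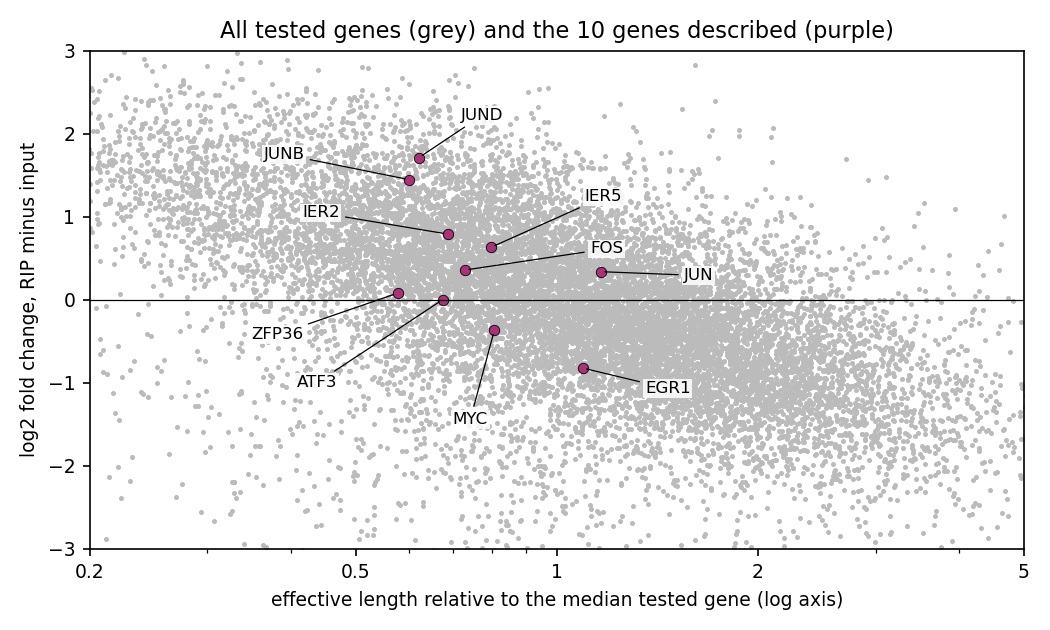
Log2 fold change (RIP minus input, TMM scale) against effective length relative to the median tested gene, on a log axis, for 13886 tested genes in grey and the 10 genes in purple (669 tested genes lie outside the axes). JUND and JUNB sit above 0 at lengths near 0.6, and ZFP36 and ATF3, of nearly the same length, sit at 0.08 and 0.00.

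JUN, JUNB and JUND are the JUN proteins of AP-1, each from a gene without introns. JUN is the strong activator of growth-related targets, JUNB tempers JUN activity in many settings, and JUND is the most evenly expressed of them and tends to restrain growth.

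JUND had 33.75 and 45.54 CPM in input and 131.5 and 128.0 CPM in RIP. The RIP libraries lay close together and far above both input libraries, which differed 1.35-fold between themselves. The log2 fold change was 1.71 (SE 0.105, edgeR adjusted p = 4.83e-10), higher than that of 94.46% of tested genes. It was between 1.5045 and 1.96 with any 1 library left out, 1.19 after length correction (adjusted p = 4.04e-09) and 0.98 with library totals (adjusted p = 3.73e-07).

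JUNB had 10.88 and 11.44 CPM in input and 28.77 and 32.08 CPM in RIP, from 253 to 647 fragments per library. The groups did not overlap. The log2 fold change was 1.45 (SE 0.103, edgeR adjusted p = 3.05e-09), with 0.89 after length correction (adjusted p = 4.33e-07) and 0.72 with library totals (adjusted p = 1.35e-05). In the RefSeq gene table JUNB overlaps 1 other gene, HOOK2, which had 365 and 406 fragments in input and 288 and 265 in RIP. The strand setting of the counting is not given in the sources used here, so fragments shared by this pair could not be separated. No other of the 10 genes overlapped a gene of that table.

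JUN, the most abundant of the 10 genes, had 227 and 245 CPM in input and 297 and 299.96 CPM in RIP. Both RIP libraries were above both input libraries, with a log2 fold change of 0.34 (SE 0.0692, edgeR adjusted p = 0.00035). It was 0.49 after length correction (adjusted p = 1.16e-06). With library totals JUN turned to -0.39 (adjusted p = 4.96e-05). As a share of all fragments on genes it was at 294.3 and 313.4 CPM without TMM factors in input and at 230.7 and 232.7 in RIP.

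Within each library the JUN family was made up differently in input and RIP. Levels per length are FPKM, the authors' fragment values scaled by transcript length and by 1 factor per library (0.93 to 1.1232), not by library totals. Between groups FPKM thus lay near the TMM scale, with JUN at 0.36 on log2(FPKM + 0.1) against -0.39 with library totals. Shares within a library are free of this factor. Per length, JUN made up 72.9% and 69.6% of the summed level of JUN, JUNB and JUND in input and 49.6% and 49.9% in RIP. JUND made up 20.3% and 24.2% in input and 41.1% and 39.8% in RIP, and JUNB 6.76% and 6.27% against 9.29% and 10.3%. The ratio of JUND to JUN per length was 0.278 and 0.347 in input and 0.828 and 0.798 in RIP, and that of JUNB to JUN 0.093 and 0.09 against 0.187 and 0.207. No ratio overlapped between groups, and with 2 libraries a group the smallest two-sided p of an exact permutation test is 0.33. On the log2 scale the change of the ratio to JUN was 1.39 for JUND and 1.11 for JUNB. JUN is the longest of the 10 transcripts, and after length correction these changes were smaller, at 0.70 and 0.40. The ratio of JUND to JUNB, which are of like length, changed by 0.28, with fragment ratios of 3.10 and 3.98 in input and 4.57 and 3.99 in RIP.

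**Figure D3:**
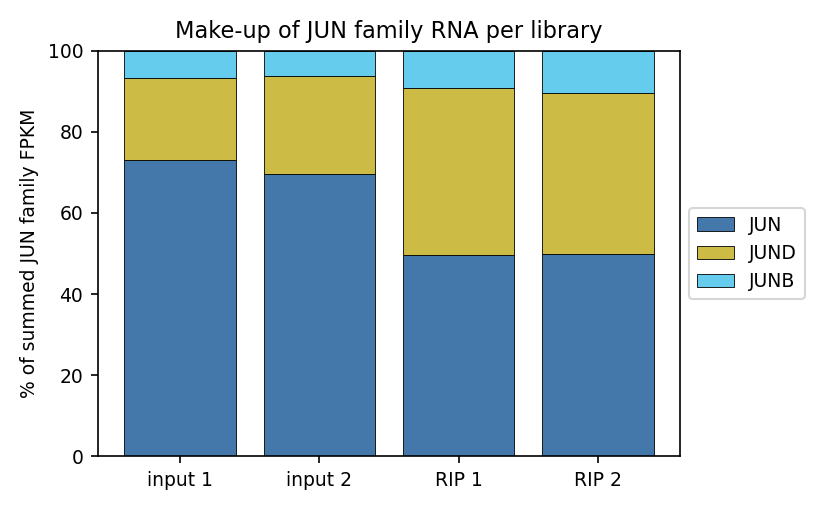
Share of JUN, JUND and JUNB in their summed FPKM (percent, stacked bars from 0 to 100) in each of the 2 input and 2 RIP libraries. JUND takes 20.3% and 24.2% in input and 41.1% and 39.8% in RIP, and JUN is at 49.6% and 49.9% in RIP.

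Upstream sequences of the JUN genes are shown because these genes were called higher in RIP on the TMM scale while differing in promoters. With library totals JUN was called lower, at -0.39. RIP measures the RNA and does not bear on promoter use. RefSeq promoters on GRCh38.p14 were matched by symbol for 9 of the 10 genes, and the 250 bases before the start of each are given 5′ to 3′, with capitals marking a match to TGACGTCA (cyclic AMP response element), TGACATCA (its JUN and ATF variant), TGACTCA (AP-1 element) or a CArG box (serum response factor site), searched on both strands; no 2 matches overlapped. JUN is on the minus strand at chr1:58784048-58784297, JUNB on the plus strand at chr19:12791236-12791485 and JUND on the minus strand at chr19:18281623-18281872.
JUN: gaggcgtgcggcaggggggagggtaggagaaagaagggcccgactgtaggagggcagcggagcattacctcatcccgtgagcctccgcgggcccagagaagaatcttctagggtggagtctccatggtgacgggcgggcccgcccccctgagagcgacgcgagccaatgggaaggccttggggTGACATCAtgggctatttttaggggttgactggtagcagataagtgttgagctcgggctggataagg
JUNB: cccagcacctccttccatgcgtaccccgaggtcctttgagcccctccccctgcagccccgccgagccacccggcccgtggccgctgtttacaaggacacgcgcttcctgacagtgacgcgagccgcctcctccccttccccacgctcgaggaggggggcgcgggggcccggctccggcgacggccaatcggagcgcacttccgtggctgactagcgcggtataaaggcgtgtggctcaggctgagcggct
JUND: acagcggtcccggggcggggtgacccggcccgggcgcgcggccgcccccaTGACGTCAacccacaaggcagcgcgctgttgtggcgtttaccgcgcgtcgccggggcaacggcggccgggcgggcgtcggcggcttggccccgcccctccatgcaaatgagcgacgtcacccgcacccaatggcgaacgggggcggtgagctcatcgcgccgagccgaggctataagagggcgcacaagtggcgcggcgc
JUN holds TGACATCA 67 to 60 bases before the start, JUND holds TGACGTCA 200 to 193 bases before it, and JUNB holds none of these letters in this window. Among 35116 promoters of the same length, 1.65% hold TGACGTCA, 2.37% TGACATCA, 4.2% TGACTCA and 1.16% a CArG box. The GC content of these windows was 62.0% for JUN, 70.8% for JUNB and 74.8% for JUND, against a median of 58.0% over all promoters.

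FOS, the partner of JUN proteins in AP-1, was low in both groups. It had 64 and 69 fragments in input and 71 and 79 in RIP, or 2.72 and 3.12 CPM against 3.56 and 3.92 CPM. The groups did not overlap, but the log2 fold change of 0.36 (SE 0.206, edgeR adjusted p = 0.1232) did not pass the test. It was -0.02 after length correction (adjusted p = 0.9263) and -0.37 with library totals (adjusted p = 0.1092). Exact 95% Poisson intervals, which cover counting error only, ran from 49.3 to 81.7 fragments in the first input library and from 62.5 to 98.5 in the second RIP library, which overlap. On the log2(FPKM + 1) scale limma gave 0.23 with an adjusted p of 0.04469, so the call of FOS depends on the test and the scale. Relative to JUN per length FOS was at 0.019 and 0.02 in input and 0.019 and 0.021 in RIP.

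ATF3, a stress-induced factor of the ATF/CREB family that also pairs with JUN proteins, stood at 33.71 and 31.20 CPM in input and 34.84 and 30.20 CPM in RIP. The groups overlapped, with a log2 fold change of 0.00 (SE 0.0939, edgeR adjusted p = 0.9844). Set against genes of its length it was lower. After length correction ATF3 was at -0.45 (adjusted p = 0.0002632), and with library totals at -0.73 (adjusted p = 4.74e-06).

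EGR1, which binds GC-rich promoter sites and is induced by serum, was the lowest of the 10 by fold change. It had 70 and 75 fragments in input and 39 and 33 in RIP, or 2.98 and 3.39 CPM against 1.96 and 1.64 CPM. Both RIP libraries were below both input libraries, with a log2 fold change of -0.82 (SE 0.24, edgeR adjusted p = 0.005622), -0.75 after length correction (adjusted p = 0.0111) and -1.55 with library totals (adjusted p = 2.54e-05). DESeq2 gave -0.81 with an adjusted p of 0.05146. FOS and EGR1 had nearly equal fragments in input, with ratios of 0.914 and 0.920, but ratios of 1.82 and 2.39 in RIP. The log2 change of this ratio was 1.19, and 0.72 after length correction. The promoter of EGR1 is the textbook case of serum response, and its 250 upstream bases (RefSeq, GRCh38.p14, plus strand, chr5:138465229-138465478) carry 2 CArG boxes, in capitals.
EGR1: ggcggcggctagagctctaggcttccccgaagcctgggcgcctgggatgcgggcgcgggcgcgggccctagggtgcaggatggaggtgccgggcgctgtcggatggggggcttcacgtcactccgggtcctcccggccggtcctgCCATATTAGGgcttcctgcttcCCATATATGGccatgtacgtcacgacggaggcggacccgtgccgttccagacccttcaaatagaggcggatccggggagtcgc
The boxes lie 105 to 96 and 83 to 74 bases before the start. None of the other 8 genes with a promoter in the table had a CArG box in its window.

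IER2 and IER5 are related immediate early proteins of the nucleus and cytoplasm, both induced by serum and stress. IER2 had 23.55 and 25.14 CPM in input and 44.48 and 39.77 CPM in RIP, a log2 fold change of 0.79 (SE 0.0911, edgeR adjusted p = 8.89e-07). IER5 had 56.19 and 61.05 CPM in input and 94.28 and 87.47 CPM in RIP, a log2 fold change of 0.63 (SE 0.0768, adjusted p = 1.65e-06). In both genes the groups were well apart. The pair moved nearly in parallel, since the ratio of IER2 to IER5 fragments was 0.419 and 0.412 in input and 0.472 and 0.455 in RIP. After length correction the values were 0.36 for IER2 (adjusted p = 0.001128) and 0.34 for IER5 (adjusted p = 0.0003123). With library totals neither passed the test, at 0.06 (adjusted p = 0.541) and -0.10 (adjusted p = 0.2393).

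MYC had 76.89 and 76.92 CPM in input and 61.00 and 58.22 CPM in RIP. The groups did not overlap, and the log2 fold change was -0.37 (SE 0.0729, edgeR adjusted p = 0.0002657). It was -0.65 after length correction (adjusted p = 1.39e-07) and -1.10 with library totals (adjusted p = 1.99e-09). MYC was thus lower on each of these scales, and the ratio of JUND to MYC fragments went from 0.439 and 0.592 in input to 2.156 and 2.198 in RIP. The ratio of IER5 to MYC fragments went from 0.731 and 0.794 to 1.546 and 1.503.

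ZFP36 had the fewest fragments, 25 and 32 in input and 30 and 23 in RIP, or 1.06 and 1.45 CPM against 1.51 and 1.14 CPM. The groups overlapped, and the log2 fold change of 0.08 (SE 0.325, edgeR adjusted p = 0.8282) had a wide error. It was -0.52 after length correction (adjusted p = 0.1664) and -0.65 with library totals (adjusted p = 0.07842), and passed the test on none of these scales. CPM values of input and RIP did not overlap for 8 of the 10 genes, all but ATF3 and ZFP36, compared with 89.1% of all tested genes.

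The order of the genes by level per length changed between input and RIP. Differences in FPKM of a gene between the groups rest on the authors' library factors, not on library totals. In input JUN was highest (69.9 ± 4.79 FPKM, SD, n = 2), followed by MYC (32.8 ± 0.434), IER5 (25.3 ± 1.81), JUND (21.97 ± 4.9), ATF3 (16.6 ± 0.81), IER2 (12.2 ± 0.723) and JUNB (6.38 ± 0.309). FOS (1.38 ± 0.151), EGR1 (1.002 ± 0.106) and ZFP36 (0.748 ± 0.172) were far lower. IER5 and JUND overlapped in input, and no other neighbours did. In RIP JUN (89.4 ± 0.463) was followed by JUND (72.7 ± 1.49), IER5 (39.7 ± 2.16), MYC (25.7 ± 0.886), IER2 (21.3 ± 1.72), JUNB (17.6 ± 1.33) and ATF3 (16.8 ± 1.76), of which the last 2 overlapped. FOS was at 1.79 ± 0.117, ZFP36 at 0.798 ± 0.157 and EGR1 at 0.572 ± 0.0732. MYC was in the second place in input and the fourth in RIP, and JUND the reverse. Summed over the 10 genes, fragments were 0.0608% and 0.0645% of each input library and 0.0543% and 0.0529% of each RIP library, and JUN alone gave 48.4% and 48.6% of this sum in input and 42.5% and 44.0% in RIP.

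**Figure D4:**
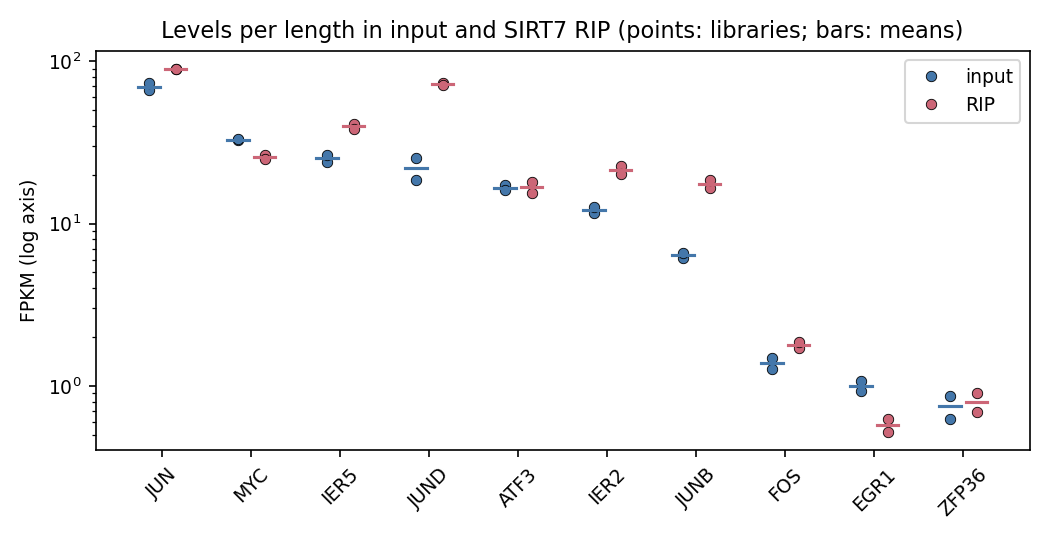
FPKM on a log axis for each gene, with a point for each of the 2 input (blue) and 2 RIP (red) libraries and a bar at each mean. JUND rises from 21.97 to 72.7 FPKM and JUNB from 6.38 to 17.6 FPKM, while MYC and EGR1 lie lower in both RIP libraries. FPKM are not scaled to library totals, with which JUN was lower in RIP.

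Relatives of these genes in 7 lists were mixed in direction. Their counts stand beside 38.0% higher and 39.7% lower among all tested genes on the TMM scale. The shares over all tested genes were 34.4% and 35.9% after length correction, and 17.0% and 65.5% with library totals. Of 11 tested relatives in the AP-1 family 4 were higher and 2 lower (median log2 fold change 0.23, or 0.49 after length correction). The 4 higher calls came from BATF factors and from small MAF proteins, which lack an activation domain. BATF3 was at 1.47 (edgeR adjusted p = 2.3e-08), but at 0.25 after length correction (adjusted p = 0.07356), and MAFF at 1.17 (adjusted p = 4.54e-05). ATF2, a partner of JUN, fell by 0.95 (adjusted p = 2.22e-07), and MAFG, at 0.08 (adjusted p = 0.374), did not pass the test. Once length was corrected for, MAFG was higher, at 0.71 (adjusted p = 1.83e-07), and with library totals it was lower, at -0.65 (adjusted p = 3.07e-06). With library totals the list had 3 higher and 5 lower.

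Of 11 tested EGR, NR4A and KLF factors and their cofactors 4 were higher and 4 lower (median -0.25). NAB1, a corepressor of EGR1, fell by 0.76 (edgeR adjusted p = 6.48e-07), and by 0.26 with length offsets (adjusted p = 0.005956). KLF10 was at -0.25 (adjusted p = 0.05272), and was called lower with length offsets (-0.25, adjusted p = 0.04227) and with library totals (-0.98, adjusted p = 1.12e-06). It ran from -0.42 without the second RIP library (adjusted p = 0.00309) to -0.09 without the first (adjusted p = 0.5554), and was at -0.34 without the first input library (adjusted p = 0.01265). NR4A2 was at -1.68 and KLF2 at 1.57, both on few fragments, and the call of KLF2 was lost after length correction (0.91, adjusted p = 0.06491) and with library totals (0.85, adjusted p = 0.07678). Without the first RIP library NR4A2 was at -0.85 (adjusted p = 0.1094) and KLF2 at 1.25 (adjusted p = 0.07296), and without the second RIP library NR4A2 was at -3.85. With library totals the list had 1 higher and 6 lower.

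Among 40 other early-response regulators 21 were higher, 5 lower and 14 neither (median 0.42). After length correction 15 were higher and 6 lower (median 0.09), and with library totals 8 and 18. The phosphatase gene DUSP2, which turns off MAP kinases, was at 1.95 (edgeR adjusted p = 1.73e-07) and RHOB, a short-lived small GTPase, at 1.10 (adjusted p = 7.40e-09). CCNL1, a cyclin of the splicing machinery, fell by 1.90 (adjusted p = 3.19e-11) and was at -2.07 after length correction. MCL1, the short-lived BCL2 family survival factor, was at -0.26 (adjusted p = 0.003279), at 0.13 after length correction (adjusted p = 0.07358) and at -0.23 without the first RIP library (adjusted p = 0.07926).

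The ATF and C/EBP stress factors held 8 higher and 1 lower of 9 tested genes (median 1.07), beside 38.0% and 39.7% of all tested genes. TRIB3, a pseudokinase induced by ATF4, was at 1.75 (edgeR adjusted p = 1.66e-11) and DDIT3 at 1.32 (adjusted p = 1.22e-08). ATF4 itself was at 0.84 (adjusted p = 2.91e-08) and XBP1 at 0.43 (adjusted p = 0.0001591). These genes were short, at a median of 0.599 times the median tested gene. After length correction 4 were higher and none lower (median 0.33), with TRIB3 at 1.504, ATF4 at 0.02, DDIT3 at 0.07 and XBP1 at -0.14. With library totals 5 were higher and 2 lower, with ATF4 at 0.11 (adjusted p = 0.1429) and XBP1 at -0.30.

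In the MYC network 6 of 11 tested partners and antagonists were higher and 4 lower (median 0.30). The MAX-binding repressors MXD3 and MXD4 were at 2.12 (edgeR adjusted p = 2.06e-12) and 1.90 (adjusted p = 4.58e-12), and at 1.89 and 2.2015 after length correction. Both were higher with library totals too, at 1.39 and 1.17, where the list had 2 higher and 7 lower. MYC itself was lower on these scales.

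Among 7 other proteins that bind AU-rich elements 3 were higher and 1 lower (median -0.08), and after length correction 3 were higher and 0 lower (median 0.20). KHSRP, which promotes decay, was at 0.42 (edgeR adjusted p = 3.43e-05) and ELAVL1 (HuR), which stabilises such mRNAs, at 0.38 (adjusted p = 0.0001108), while TIA1 fell by 0.65 (adjusted p = 6.12e-07) with -0.11 once length was corrected for (adjusted p = 0.1598). On that scale ELAVL1 was at 1.20 (adjusted p = 2.96e-11) and KHSRP at 0.54. With library totals all 7 were lower, as were 65.5% of all tested genes, with KHSRP at -0.31 and ELAVL1 at -0.36. Of 17 upstream factors and kinases 4 were higher and 10 lower (median -0.59, or -0.08 after length correction with 6 higher and 8 lower). With library totals this list had 2 higher and 13 lower. The MAP kinase kinase gene MAP2K2 was at 2.04 (adjusted p = 4.93e-12), whereas FBXW7, a ubiquitin ligase receptor for JUN and MYC proteins, fell by 1.78 (adjusted p = 4.07e-10). After length correction MAP2K2 was at 1.43 and FBXW7 at -2.04, and with library totals at 1.31 and -2.51.

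**Figure D5:**
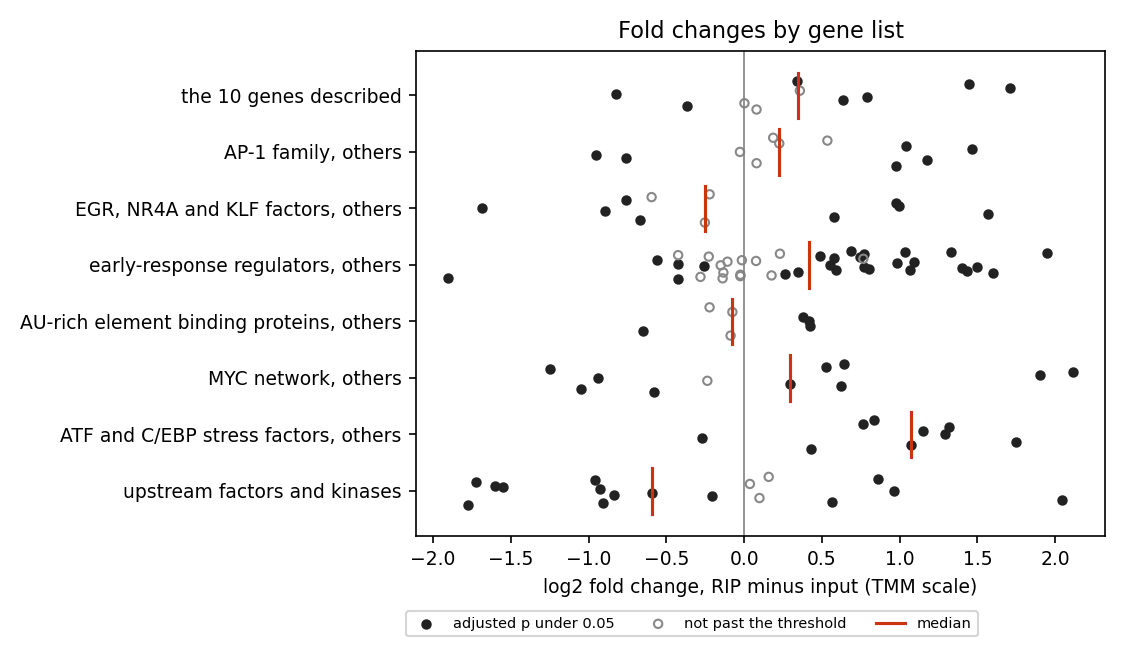
Log2 fold change (RIP minus input, TMM scale) of each tested gene in the 8 lists, with filled points for edgeR adjusted p under 0.05, open points otherwise and a red line at each median. The medians run from -0.59 (upstream factors and kinases) to 1.07 (ATF and C/EBP stress factors), and the 10 genes described have a median of 0.35.

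The other tested genes whose centred log2 CPM over the 4 libraries was nearest to the median profile of the 10 genes were SPAG16, DDX47 and RPP30, at Euclidean distances of 0.0283, 0.0301 and 0.0313. Their log2 fold changes were 0.39, 0.37 and 0.38, near the median of the 10 genes because they were picked by this profile.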

How the data were processed

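Per the submitters' processing notes, the tools were Cuffdiff 2.2.1, TopHat2 2.0.13, Bowtie2 2.2.6 and cutadapt 1.5, with the build hg19. Annotation and strand setting: not given in the sources used here. The deposited table holds the authors' estimated counts (expected fragments per gene, 97.94% whole), the same fragments as a scaled signal deposited by the authors (1 factor per library, 0.93 to 1.1232), and the authors' FPKM values. None of the 10 genes had a failed entry. Replicates are numbered from 0 in the table and from 1 in the labels, and were matched in that order.

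Estimated counts were rounded and tested with edgeR 4.0.16 in R 4.3.3 (filterByExpr, TMM, glmQLFit and glmQLFTest, group only, Benjamini-Hochberg at 0.05). The filter was at its settings of a minimum count of 10, which not every library had to reach, and 15 summed. The standard error (SE) is the log2 fold change divided by the square root of F. Effective length is the scaled signal over FPKM, and length offsets are loess fits (span 0.3) per library. The script was tested on simulated counts. Alternatives were DESeq2 1.42.0, limma 3.58.1 on log2(FPKM + 1) and log2(FPKM + 0.1), other scalings, filters, a replicate block and each library left out. The 10 genes and the other lists were chosen with earlier results of these data known. Besides the 10 genes, each list's 2 most abundant and 2 most changed genes were named, along with the 3 genes of most similar profile; 2 genes that this rule names are not reported here.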

Additional observations from a re-analysis of the deposited data

How the results depend on the processing

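JUND, JUNB and MYC kept their direction and call under all 14 alternatives, with log2 fold changes of 0.98 to 1.96, 0.72 to 1.53 and -1.10 to -0.33. EGR1 ranged from -1.55 to -0.35 and lost its call with DESeq2. With library totals all tested genes split into 2479 higher and 9539 lower (5531 and 5783 with TMM), and the 10 genes into 2 higher and 4 lower. The count of lower genes among the 10 was 1 with DESeq2. Library totals turned JUN to -0.39, IER5 to -0.10, FOS to -0.37, ATF3 to -0.73, ZFP36 to -0.65, MAFG to -0.65, KHSRP to -0.31, ELAVL1 to -0.36, XBP1 to -0.30, VIM to -0.0299 and COL1A1 to -0.45. Length offsets turned ATF3 to -0.45, FOS to -0.0233, ZFP36 to -0.52, XBP1 to -0.14 and MCL1 to 0.13, and with the replicate block added these were at -0.45, -0.024, -0.52, -0.14 and 0.13. With block and offsets MCL1 was called higher (edgeR adjusted p = 0.04279) and XBP1 lower (adjusted p = 0.03645), opposite to their calls on the TMM scale. FOS passed the threshold on the log2(FPKM + 1) scale (0.23, adjusted p = 0.04469). Leaving out 1 library at a time gave 5140 to 5525 genes higher and 5229 to 5579 lower, 5 and 2 among the 10, and ranges of -0.10 to 0.11 for ATF3 and -0.13 to 0.33 for ZFP36. The cause of these shifts was not tested.

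The replicate block gave 5580 higher and 5861 lower genes, with 5 and 2 among the 10. The labels do not say what the numbers share, and deviations of same-numbered libraries correlated at 0.04 over genes. The block also called KLF10 lower (-0.26, adjusted p = 0.01536). FOS, EGR1 and ZFP36 had at most 79 fragments in any library, and the part of depth in their calls was not tested.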
